A study of Mus musculus with 9 samples.

Results

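Homeobox genes encode transcription factors that bind DNA through a homeodomain, and the ones described here lie outside the 4 Hox clusters. They comprise 57 listed autosomal genes of 20661 autosomal protein-coding genes measured, among them members of the Dlx, Emx, En, Irx, Lhx, Msx, Nkx, Pitx and Vax families. The members were taken from a list of gene symbols, which was drawn up with earlier results of these data known. Many of these genes pattern the brain, eye, limb or internal organs. In embryonic stem cells such developmental genes are known for CpG-rich promoters that carry both activating and Polycomb-deposited histone marks while transcription stays low. Transcription and histone marks were not measured in these data, so whether the genes were silent in these cells is not known from them.

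Open chromatin was mapped by ATAC-seq, which uses the transposase Tn5 to cut and tag the DNA that it can reach. The cells were mouse embryonic stem cells of the E14 line (TOT2N variant), and the 9 libraries came from 3 lines with 3 libraries each. The WT line was unmodified, the TetR line carried a stably integrated construct for the tetracycline repressor, a bacterial DNA-binding protein, and the TetR-MYBTA line carried a stably integrated TetR-MYBTA construct. Going by the title of the series, the question was how lasting activity of MYB, a transcription factor of blood progenitors, affects enhancers and their contacts with promoters. The labels state neither the promoter that drives each construct, nor whether a line is 1 clone, nor whether the replicates are separate cultures. The p-values below thus set differences between groups against the spread between libraries only, and that spread may be technical. The tests of TetR-MYBTA against all other libraries also treat the TetR and WT libraries as interchangeable, although they are separate lines.

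Each library is known here by its list of peaks, 45136 to 70230 per library from 16.4 to 23.0 M tags, without tag counts per peak. A peak is therefore called or not called, and a gene with no peak may still have open chromatin under the calling threshold. The TetR-MYBTA libraries had 59675, 56917 and 45136 peaks with 7.57, 7.44 and 5.48% of tags in peaks, the lowest 3 of the 9 shares, against 7.79 to 9.78% in the other 6. The part of this difference in the results below was not tested. The gene-end counts, the 50-kb counts and the tests of the 57 genes are also given at equal list length, in the first 45136 rows of every list. The score is 1 in every row, so this relies on the row order, which follows HOMER's peak numbers, and whether that order ranks peaks by strength is not known from the lists. Of 8 stem cell markers, 3 to 5 had a peak within 1 kb of a gene end in each library. Sox2, Klf4 and Tfcp2l1 had such a peak in all 9, and Esrrb and Zfp42 in none. Of the markers of other cell types, 1 to 3 of 6 fibroblast genes, 1 or 2 of 5 endoderm genes, 3 to 5 of 5 neural progenitor genes and 1 to 4 of 5 trophoblast genes had one. Col3a1, Lum, Postn, Gata4, Sox17 and Afp had none in any library.

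The promoters show the range of behaviour among these genes. For 6 of them the 250 bases before the annotated start are given below (RefSeq, GRCm38.p6, which has the coordinates of mm10), 5′ to 3′ along the gene, with every CpG in capitals. Isl1, a regulator of motor neurons and heart progenitors, and Six6, a regulator of eye and pituitary development, had a peak over the promoter window in all 9 libraries. Msx2, a craniofacial and limb regulator, Nkx2-3, needed for spleen and gut development, and Emx2, a regulator of the cerebral cortex and urogenital tract, had one in 0, 1 and 0 TetR-MYBTA libraries. En1, which patterns the midbrain and hindbrain, had one over this window in the 3 TetR libraries only. Within 1 kb of a gene end, En1 had 0, 1 and 0 peaks in TetR-MYBTA, 1, 2 and 1 in TetR and 1, 0 and 0 in WT. These 6 were chosen after their values were seen. Isl1 lies at chr13:116309689-116309938 (minus strand), Six6 at chr12:72939632-72939881 (plus strand), Msx2 at chr13:53472781-53473030 (minus strand), Nkx2-3 at chr19:43612075-43612324 (plus strand), Emx2 at chr19:59458440-59458689 (plus strand) and En1 at chr1:120602237-120602486 (plus strand).
Isl1: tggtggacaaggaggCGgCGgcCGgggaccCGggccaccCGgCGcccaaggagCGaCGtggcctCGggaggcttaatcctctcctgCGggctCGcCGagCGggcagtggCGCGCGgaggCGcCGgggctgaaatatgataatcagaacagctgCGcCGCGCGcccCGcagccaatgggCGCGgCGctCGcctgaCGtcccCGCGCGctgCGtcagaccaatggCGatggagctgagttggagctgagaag
Six6: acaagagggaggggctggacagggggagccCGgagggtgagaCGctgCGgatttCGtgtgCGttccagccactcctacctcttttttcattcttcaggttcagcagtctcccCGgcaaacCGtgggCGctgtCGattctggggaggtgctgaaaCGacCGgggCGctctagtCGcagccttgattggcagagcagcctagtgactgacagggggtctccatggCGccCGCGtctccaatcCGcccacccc
Msx2: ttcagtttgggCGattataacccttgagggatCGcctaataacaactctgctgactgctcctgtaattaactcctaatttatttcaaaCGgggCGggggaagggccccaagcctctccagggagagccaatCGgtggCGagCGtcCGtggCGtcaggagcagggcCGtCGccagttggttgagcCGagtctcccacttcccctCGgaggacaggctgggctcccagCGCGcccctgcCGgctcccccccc
Nkx2-3: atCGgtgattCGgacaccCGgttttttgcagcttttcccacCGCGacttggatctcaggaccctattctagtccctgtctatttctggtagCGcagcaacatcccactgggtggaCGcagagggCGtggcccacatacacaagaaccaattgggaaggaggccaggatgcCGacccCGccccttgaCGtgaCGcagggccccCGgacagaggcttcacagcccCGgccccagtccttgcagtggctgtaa
Emx2: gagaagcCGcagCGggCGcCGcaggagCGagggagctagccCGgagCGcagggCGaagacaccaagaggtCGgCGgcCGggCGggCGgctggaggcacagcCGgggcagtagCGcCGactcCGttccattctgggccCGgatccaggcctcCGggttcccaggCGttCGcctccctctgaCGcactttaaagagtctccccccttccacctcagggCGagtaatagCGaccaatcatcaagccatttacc
En1: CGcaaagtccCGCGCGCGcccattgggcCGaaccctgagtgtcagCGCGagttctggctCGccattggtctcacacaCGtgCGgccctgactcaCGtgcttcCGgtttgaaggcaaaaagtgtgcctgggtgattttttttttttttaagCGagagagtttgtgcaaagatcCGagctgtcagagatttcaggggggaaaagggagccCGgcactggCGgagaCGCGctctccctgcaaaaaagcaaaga
The printed stretches hold 33 CpG in Isl1, 17 in Six6, 16 in Msx2, 14 in Nkx2-3, 24 in Emx2 and 19 in En1, so the promoters with a peak in every library and those without one in TetR-MYBTA overlapped in CpG number.

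An annotated start was at hand for 42 of the 57 genes, with 47 windows that each run from 250 bases before to 50 after the start. These windows were CpG-rich, with a median of 20 CpG against 14 over 20084 windows of 16456 genes, a median ratio of observed to expected CpG of 0.756 against 0.586, and a median GC content of 62.3% against 57%. The letters AACNG, the core of the sequence that MYB proteins bind, were searched on both strands and occurred in 78.7% of the members' windows and in 78.7% of all windows. TAATTA, a palindromic core bound by many homeodomains, occurred in 10.6% of the members' windows and in 4.47% of all windows. The 2 motifs can share bases at their ends, and a match is a description of the letters, not of binding.
Peaks over these windows were fewer in TetR-MYBTA. Of the members' windows, 14, 13 and 12 had a peak in the TetR-MYBTA libraries, 19, 21 and 19 in TetR and 18, 16 and 16 in WT. All 3 TetR-MYBTA values lay below the other 6, with a ratio of means of 0.716 against 0.923 over all windows. Over all windows the TetR-MYBTA values also lay below the other 6, with 8577, 8252 and 7992 against 8781 to 9082. The same 10 windows, those of Gbx2, Irx2, Isl1, Isl2, Meox2, Msx1, Pitx3, Six2, Six6 and Tlx3, had a peak in each of the 9 libraries. The difference therefore lay in the 17 windows with a peak in 1 to 8 libraries, of which 4, 3 and 2 had one in TetR-MYBTA, 9, 11 and 9 in TetR and 8, 6 and 6 in WT. The remaining 20 windows had none.

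The first comparison asked how many of the 57 genes had open chromatin at a gene end, meaning a peak within 1 kb of the start or end of the annotated gene. In the TetR-MYBTA libraries 26, 23 and 24 genes had such a peak, in TetR 36, 39 and 35, and in WT 36, 30 and 34. The TetR-MYBTA libraries lay below every other library, and the TetR and WT libraries overlapped. Over all autosomal protein-coding genes TetR-MYBTA also lay below every other library, with 11160, 10862 and 10301 genes against 11512 to 11965. TetR-MYBTA had such a peak at 42.7% ± 2.68 of the genes, TetR at 64.3% ± 3.65 and WT at 58.5% ± 5.36 (SD, n = 3 for each line). The ratio of TetR-MYBTA to the mean of the other 6 was 0.695 for these genes and 0.916 for all autosomal protein-coding genes, of which 52.1% ± 2.11 (SD, n = 3) had a gene-end peak in TetR-MYBTA and 56.9% ± 0.780 (SD, n = 6) in the other libraries.
At equal list length the counts were 22, 22 and 24 in TetR-MYBTA, 28, 32 and 30 in TetR and 34, 29 and 32 in WT. The groups again did not overlap, and the ratio was 0.735 against 0.939 over all genes. Over all genes the groups did not overlap either, at 10092 to 10301 genes in TetR-MYBTA against 10654 to 11070. No p is given for these totals, because the list was drawn up with results of these data known.

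**Figure D1:**
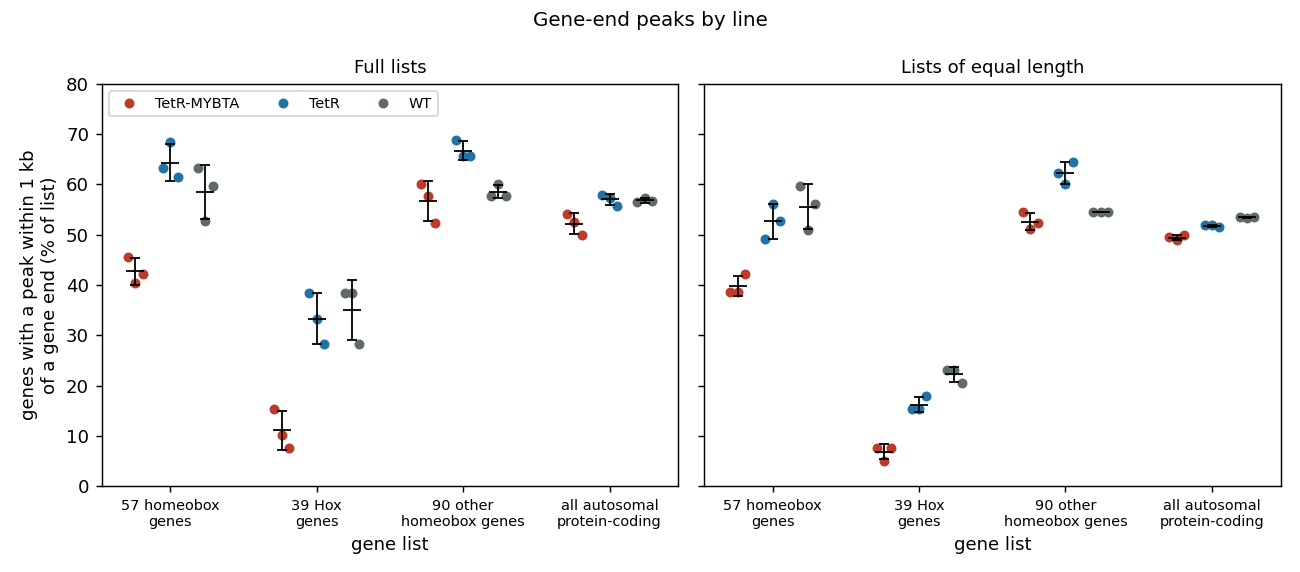
Share of each gene list with a peak within 1 kb of a gene end (y axis, %), for the 57 genes, the Hox genes, other homeobox genes and all autosomal protein-coding genes (x axis), in full lists (left) and lists of equal length (right); points are libraries, bars the mean and SD of 3. For the 57 genes the TetR-MYBTA points sit at 40.4 to 45.6% in full lists, below the lowest other library at 52.6%. For all genes they sit at 49.9 to 54.0%, also below the lowest other library, at 55.7%.

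The ratio was lower for the Hox genes and closer to that of all genes for homeobox genes not on the list. Of 39 Hox genes, 6, 4 and 3 had a gene-end peak in TetR-MYBTA, 15, 13 and 11 in TetR and 15, 15 and 11 in WT, a ratio of 0.325, or 0.356 at equal list length. Of 90 other homeobox genes the ratio was 0.905, or 0.902 at equal length, with 54, 52 and 47 in TetR-MYBTA, 62, 59 and 59 in TetR and 52, 54 and 52 in WT, so TetR-MYBTA and WT overlapped. Of 38 genes of the Polycomb and Trithorax groups, whose proteins set repressive and activating histone marks at such promoters, 32 or 33 had a gene-end peak in TetR-MYBTA and 32 to 35 in the other libraries. The differences between these lists were not tested.

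The genes differed in how often a gene-end peak was called. A gene-end peak was called in all 9 libraries at 16 genes (28.1%, against 45.4% of all genes), and the same 16 kept it in all 9 at equal list length. They are Alx1, Dlx6, Gbx2, Irx4, Isl1, Lhx1, Lhx2, Lhx9, Meox2, Msx1, Nkx2-9, Nkx6-1, Pitx3, Six2, Six6 and Tlx3. A further 11 genes (19.3%, against 36.1% of all genes) had none in any library. They are Irx2, Irx3, Irx5, Irx6, Isl2, Lhx4, Meox1, Nkx2-5, Pitx1, Prrx2 and Six3. For Irx2 and Isl2 the promoter window held a peak in all 9 libraries although the gene ends had none, since the annotated start that was used lies inside the gene. The other 30 genes had a gene-end peak in 1 to 8 libraries. A gene-end peak called in some but not all libraries was thus more frequent among the 57 genes than among all genes.
The genes with most gene-end peaks were Isl1, Meox2, a regulator of somite and limb muscle development, Pitx3, required in the lens and in midbrain dopaminergic neurons, Dlx6, a branchial arch and forebrain regulator, Nkx2-9, expressed in the ventral nervous system, and Six6. Isl1 and Meox2 had 2 gene-end peaks in each of the 9 libraries. Dlx6 had 2, 2 and 1 in TetR-MYBTA, 2, 2 and 2 in TetR and 2, 1 and 1 in WT, and Nkx2-9 had 2, 2 and 1, then 1, 2 and 2, then 2, 2 and 1. Pitx3 had 1, 2 and 1 in TetR-MYBTA and 2 in each other library. Six6 had 1 in each TetR-MYBTA library, 2, 2 and 1 in TetR and 2 in each WT library. In Six6 the TetR-MYBTA and WT libraries did not overlap, and in the other 5 genes the lines overlapped or were equal.
The genes with fewest peaks within 50 kb were Irx6, expressed in retinal interneurons, Pitx1, which specifies the hindlimb, Barhl1, expressed in cerebellar granule cells and hair cells, and Nkx2-5, a heart regulator. Irx6 and Pitx1 never had more than 1 peak. Nkx2-5 had 1, 2 and 0 peaks within 50 kb in TetR-MYBTA, 1, 1 and 0 in TetR and 2, 3 and 3 in WT.

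In several genes a gene-end peak was present throughout one line and absent from another. Barhl2, which acts in retinal and spinal interneurons, and Msx2 had no gene-end peak in any TetR-MYBTA library and one in each of the other 6. That is 2 of 57 genes, where 0.561% of all genes showed this pattern. No member showed the reverse, against 0.0581% of all genes. Against the TetR line alone, 4 genes lacked the peak in every TetR-MYBTA library and had it in every TetR library, namely Barhl2, Emx2, Msx2 and Otp, a hypothalamic regulator (1.38% of all genes), and none showed the reverse (0.169%). Against WT alone, 3 genes did so, namely Barhl1, Barhl2 and Msx2 (1.35% of all genes), and none the reverse (0.15%). Between the control lines, En2, which acts with En1 in the midbrain and cerebellum, had a gene-end peak in every WT and no TetR library (0.319% of all genes), and no gene the reverse (0.358%).
Emx2 had 1, 1 and 2 gene-end peaks in TetR and 1, 1 and 0 in WT. Otp had 1 in each TetR library and 0, 0 and 1 in WT. Barhl1 had 1, 1 and 0 in TetR and 1 in each WT library. En2 had 1, 0 and 1 in TetR-MYBTA and 2, 1 and 2 in WT, so the TetR line was the one without it. At equal list length Barhl2 alone had the pattern against all 6 other libraries (0.421% of all genes), because Msx2 had no peak in TetR replicate 3. Against TetR alone 2 genes had it, Barhl2 and Emx2 (1.04%), and against WT alone 2, Barhl2 and Msx2 (1.29%). The reverse was found at no member against all 6 (0.0871% of all genes), against TetR (0.363%) or against WT (0.174%). At this length En2 and Emx1 had a gene-end peak in every WT and no TetR library (0.784%), and no member the reverse (0.319%).

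**Figure D2:**
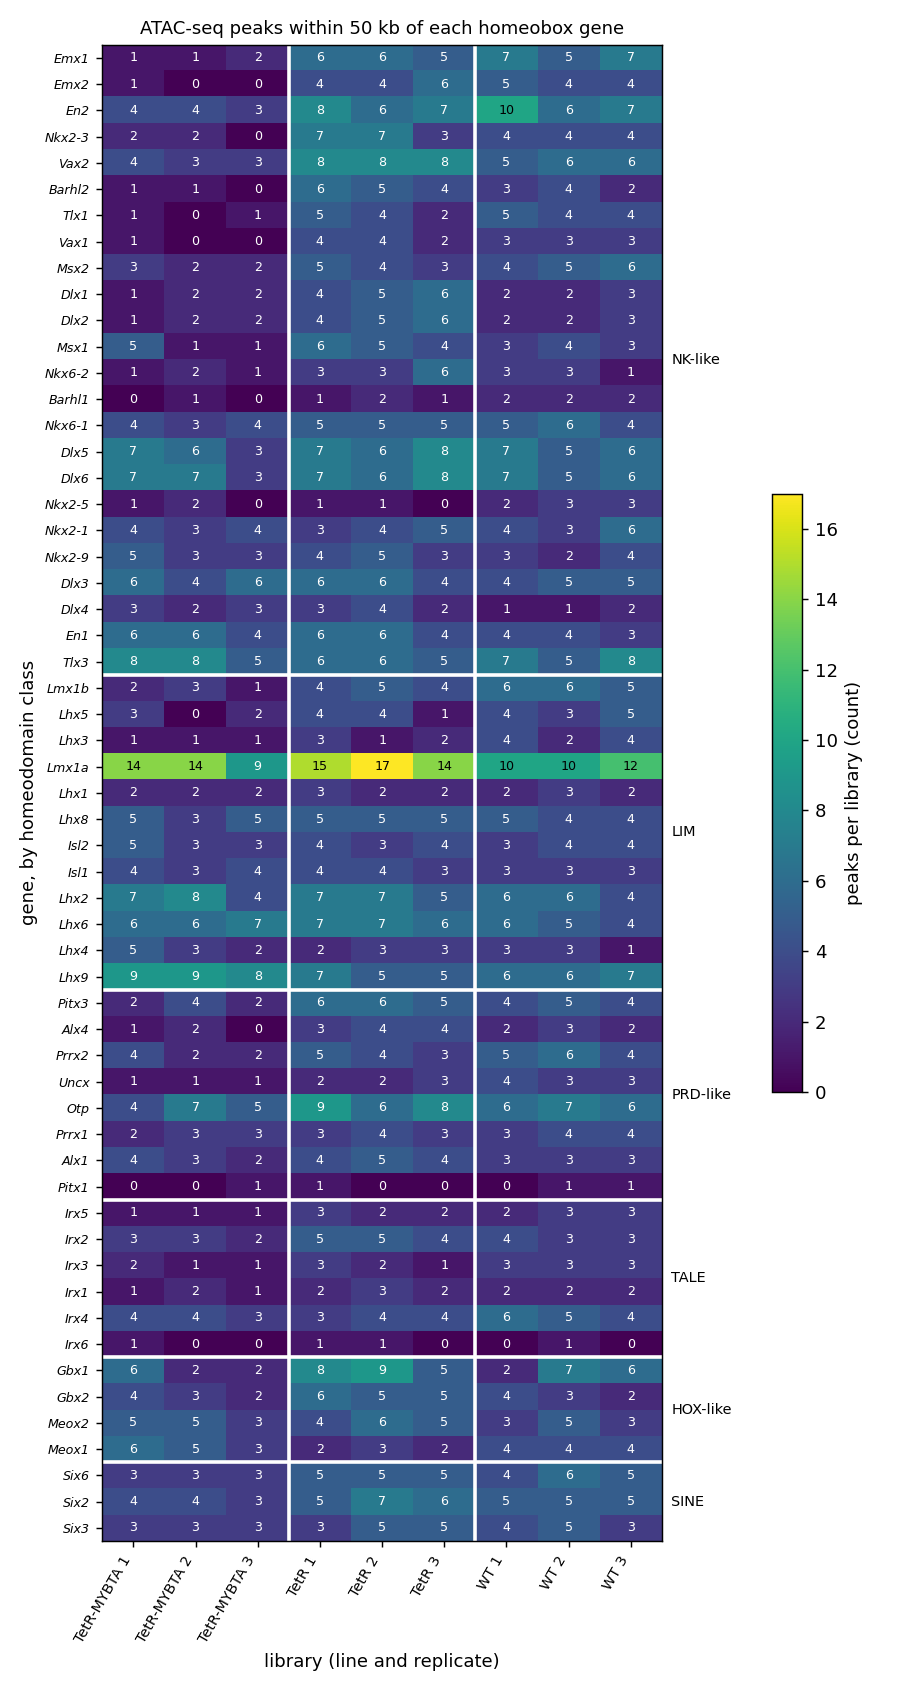
Number of peaks within 50 kb of each of the 57 genes (rows, grouped by homeodomain class and ordered by the difference of means) in each library (columns, 3 per line); colour and the printed digit give the count. The upper rows of the NK-like class, such as Emx1 and Emx2, hold 0 to 2 peaks in TetR-MYBTA and 4 to 7 in the other 6 libraries.

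Peaks were next counted within 50 kb of the genes, a span that takes in nearby regulatory elements. The windows joined into 52 stretches covering 6.35 Mb. In 36 genes the window also held another protein-coding gene, and in 8 another member, so the windows of close neighbours such as Dlx1 and Dlx2 share peaks. The joined windows held 188, 166 and 133 peaks in TetR-MYBTA, 250, 248 and 216 in TetR and 216, 220 and 213 in WT. The TetR-MYBTA libraries lay below the other 6, with means of 162 ± 27.7, 238 ± 19.1 and 216 ± 3.51 (SD, n = 3 each). Windows around all genes also separated the groups, with 34384 to 44491 peaks in TetR-MYBTA against 45097 to 54740. The ratio of counts, 0.715, compares with 0.822 for windows around all genes. As a share of the library's peaks, TetR-MYBTA had 0.300% ± 0.013 in the windows, TetR had 0.367% ± 0.010 and WT had 0.363% ± 0.017 (SD, n = 3 for each line). That is a ratio of 0.824 for these genes, 0.952 for all genes, 0.889 for the other homeobox genes and 0.469 for the Hox genes. At equal list length the counts were 146, 126 and 133 in TetR-MYBTA, 163, 163 and 151 in TetR and 182, 163 and 163 in WT, and the ratio was 0.822 against 0.945 over all genes.

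Each gene was then tested singly, by a two-sided exact permutation test of the mean peak count within 50 kb in the 3 TetR-MYBTA libraries against the other 6, which can give no p below 0.0119. No gene among the 20661 passed after Benjamini-Hochberg adjustment over all of them (lowest adjusted p = 0.129), and 4134 had an unadjusted exact p under 0.05, the threshold used below. Among the 57 genes, 17 were lower at that threshold (29.8%), where 18.4% of all genes were, and 1 was higher (1.65% of all genes). The count of lower genes went from 17 to 9 without TetR-MYBTA replicate 3, the shortest list, where the smallest possible exact p is 0.0357. The share of all genes without that library was not computed. In 13 genes the TetR-MYBTA counts all lay below the other 6 (11.3% of all genes), and in 1 all lay above (0.77%). At equal list length 6 genes were lower (10.5%), near the background of 9.05%, and 1 was higher (4.82%). The groups then did not overlap at 4 lower genes (5.72%) and 1 higher gene (2.95%). Of the 57 means, 44 were below in TetR-MYBTA, 11 above and 2 equal, against 71.8% of all genes below. The median difference was −1.17 peaks for the 57 genes and −0.83 for all genes in full lists, and −0.67 and −0.17 at equal length.

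In the NK-like class 11 of 24 members were lower and none was higher, where 18.4% of all genes were lower and 1.65% higher. In lists of equal length 3 of the 24 were lower, namely Emx2, Nkx2-3 and Barhl2, where 9.05% of all genes were. Its members, which include the Emx, En, Msx, Nkx, Tlx, Barhl, Dlx and Vax genes, had 66, 55 and 44 peaks within 50 kb in TetR-MYBTA, 105, 102 and 91 in TetR and 92, 85 and 91 in WT, so TetR-MYBTA lay below every other library. The ratio to the other 6 libraries was 0.58, or 0.69 at equal list length. For windows around all genes the ratios were 0.822 and 0.945, and TetR-MYBTA also lay below every other library.
Emx2 (chr19:59458690-59465357) had 1, 0 and 0 peaks within 50 kb in TetR-MYBTA, 4, 4 and 6 in TetR and 5, 4 and 4 in WT. The groups did not overlap (exact permutation p = 0.0119, adjusted p over all genes 0.129), and no other protein-coding gene lay in the window. At equal length the values were 1, 0 and 0, then 3, 4 and 4, then 3, 4 and 3, with the same exact p.
Barhl2 (chr5:106452523-106458166) had 1, 1 and 0 in TetR-MYBTA, 6, 5 and 4 in TetR and 3, 4 and 2 in WT (exact permutation p = 0.0119). Its groups also stayed apart at equal length, with 1, 0 and 0, then 4, 2 and 2, then 3, 2 and 2. Without TetR-MYBTA replicate 3 its exact p was 0.0714.
Nkx2-3 (chr19:43612325-43615892) had 2, 2 and 0 in TetR-MYBTA, 7, 7 and 3 in TetR and 4, 4 and 4 in WT (exact permutation p = 0.0476). At equal length it had 1, 0 and 0, then 4, 4 and 3, then 3, 3 and 4 (exact p = 0.0119). In full lists its exact p was 0.0714 without any 1 of the TetR-MYBTA libraries and 0.0536 without any 1 of the WT libraries. TetR-MYBTA was the lowest line for all 3 genes in both kinds of list.
Emx1, the cortical partner of Emx2, had the largest difference of means among the 57 genes, with 1, 1 and 2 peaks in TetR-MYBTA, 6, 6 and 5 in TetR and 7, 5 and 7 in WT (exact permutation p = 0.0119). At equal length TetR had 1, 3 and 3, WT 7, 3 and 3 and TetR-MYBTA again 1, 1 and 2, so the groups overlapped (exact permutation p = 0.167).
En2 had 4, 4 and 3 peaks in TetR-MYBTA, 8, 6 and 7 in TetR and 10, 6 and 7 in WT (exact permutation p = 0.0119, but 0.0714 at equal length and also without TetR-MYBTA replicate 3). Vax2, which acts in the ventral eye, had 4, 3 and 3, then 8, 8 and 8 in TetR, then 5, 6 and 6 in WT (exact permutation p = 0.0238, but 0.0595 at equal length). For Vax2 the TetR and WT libraries did not overlap either, TetR being the higher. Tlx1, required for spleen formation, had 1, 0 and 1, then 5, 4 and 2, then 5, 4 and 4 (exact permutation p = 0.0119, but 0.202 at equal length). Vax1, which acts in the ventral forebrain and optic nerve, had 1, 0 and 0, then 4, 4 and 2, then 3, 3 and 3 (exact permutation p = 0.0119, but 0.0714 at equal length). In these 4 genes the full lists kept TetR-MYBTA below every other library, and equal list length ended each call.
Msx2 (chr13:53466881-53472780) had 3, 2 and 2 peaks in TetR-MYBTA, 5, 4 and 3 in TetR and 4, 5 and 6 in WT, so that TetR-MYBTA replicate 1 and TetR replicate 3 were equal (exact permutation p = 0.0357, but 0.0833 at equal length). Without any 1 of TetR-MYBTA replicates 2 and 3, TetR replicates 1 and 2 or the WT libraries its exact p was 0.0536 to 0.143. Barhl1 had 0, 1 and 0, then 1, 2 and 1, then 2, 2 and 2 (exact permutation p = 0.0357, but 0.417 at equal length). Its exact p was 0.0714 to 0.107 without any 1 of TetR-MYBTA replicates 1 and 3, TetR replicate 2 or the WT libraries. The last NK-like gene that passed was Nkx6-1, a regulator of pancreatic beta cells and motor neurons, whose exact permutation p was 0.0357, but 0.0595 at equal length, 0.667 after scaling to the chromosome, and 0.0536 to 0.25 when any 1 library other than WT replicate 3 was left out.

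The LIM class, which pairs the homeodomain with LIM domains, showed little difference in sum. Its 12 members had 63, 55 and 48 peaks within 50 kb in TetR-MYBTA, 65, 63 and 54 in TetR and 58, 55 and 55 in WT. The lines overlapped, and the ratio was 0.95, or 1.08 at equal list length. Lmx1b, needed for dorsal limb and kidney podocytes, had 2, 3 and 1 in TetR-MYBTA, 4, 5 and 4 in TetR and 6, 6 and 5 in WT (exact permutation p = 0.0119, but 0.262 at equal length).
Lhx9, a gonad and limb regulator at chr1:138825186-138848839, was the only gene of the 57 that was higher. It had 9, 9 and 8 peaks in TetR-MYBTA, 7, 5 and 5 in TetR and 6, 6 and 7 in WT, and the groups did not overlap (exact permutation p = 0.0119, adjusted p over all genes 0.129). At equal length it had 8 in each TetR-MYBTA library, 6, 5 and 5 in TetR and 6, 6 and 7 in WT (exact p = 0.0119). After scaling each library to its peaks on the chromosome its exact p was 0.0476. Its gene end held 1 peak in each of the 9 libraries, so the difference lay elsewhere in the window, and within 10 kb of the gene the exact p was 0.524. Isl1 differed little, with 4, 3 and 4 peaks in TetR-MYBTA, 4, 4 and 3 in TetR and 3, 3 and 3 in WT (exact permutation p = 0.524).

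In the PRD-like class all 8 members had lower means in TetR-MYBTA in full lists, Pitx1 having a higher one at equal list length, and 2 passed. Of all genes, 71.8% had a lower mean and 18.4% passed as lower in full lists. The class held 18, 22 and 16 peaks in TetR-MYBTA, 33, 31 and 30 in TetR and 27, 32 and 27 in WT, a ratio of 0.62, or 0.73 at equal list length. Uncx, which patterns the somites, had 1 peak in each TetR-MYBTA library, 2, 2 and 3 in TetR and 4, 3 and 3 in WT (exact permutation p = 0.0119, but 0.25 at equal length). Pitx3 had 2, 4 and 2 in TetR-MYBTA, 6, 6 and 5 in TetR and 4, 5 and 4 in WT (exact permutation p = 0.0357, but 0.167 at equal length and 0.202 after scaling to the chromosome). Its exact p was 0.0714 to 0.143 without any 1 of TetR-MYBTA replicates 1 and 3, the TetR libraries or WT replicate 2. Otp had 4, 7 and 5, then 9, 6 and 8, then 6, 7 and 6 (exact permutation p = 0.167), so the lines overlapped although its gene end differed.
In the TALE class, here the 6 Irx genes, all 6 means were lower in TetR-MYBTA and 1 gene passed, or 2 at equal list length. Among all genes 71.8% of means were lower and 18.4% of genes passed as lower, or 9.05% at equal length. The class held 12, 11 and 8 peaks in TetR-MYBTA, 17, 17 and 13 in TetR and 17, 17 and 15 in WT, a ratio of 0.65, or 0.55 at equal length. Irx5, which acts in the heart and retina, had 1 peak in each TetR-MYBTA library, 3, 2 and 2 in TetR and 2, 3 and 3 in WT (exact permutation p = 0.0238). At equal length it had 1 in each TetR-MYBTA library, 2 in each TetR library and 2, 3 and 2 in WT (exact p = 0.0119). Within 10 kb the exact p of Irx5 was 1, so its difference lay farther out. Irx2, which passed at equal length only, had 3, 3 and 2 peaks in TetR-MYBTA, 5, 5 and 4 in TetR and 4, 3 and 3 in WT (exact permutation p = 0.0952). At equal length it had 1, 1 and 2, then 4, 4 and 3, then 3, 3 and 2, so TetR-MYBTA and WT overlapped (exact permutation p = 0.0238).
All 3 SINE genes had lower means (71.8% of all genes did), and 2 passed (18.4% of all genes were lower). Six2, which maintains nephron progenitors, had 4, 4 and 3 peaks in TetR-MYBTA, 5, 7 and 6 in TetR and 5, 5 and 5 in WT (exact permutation p = 0.0119, or 0.0238 at equal length, but 0.0952 after scaling to the chromosome and 0.0714 without any 1 TetR-MYBTA library). Six6 had 3 in each TetR-MYBTA library, 5 in each TetR library and 4, 6 and 5 in WT (exact permutation p = 0.0119, but 0.226 at equal length). The HOX-like class, Gbx1, Gbx2, Meox1 and Meox2, held 21, 15 and 10 peaks in TetR-MYBTA, 20, 23 and 17 in TetR and 13, 19 and 15 in WT. These lines overlapped and no gene of the class passed, and the ratio was 0.86, or 1.03 at equal length. Meox2 had 5, 5 and 3, then 4, 6 and 5, then 3, 5 and 3 (exact permutation p = 1).

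The lines were also compared in pairs. With 3 libraries against 3 the two-sided exact permutation p cannot go below 0.10, so genes were counted whose libraries did not overlap. Between TetR and WT, 6 of the 57 genes had more peaks in TetR (8.22% of all genes did), namely Alx1, Dlx1, Dlx2, Gbx2, Lmx1a and Vax2. Dlx1 and Dlx2, whose windows share peaks, had equal counts in every library. Both are counted as separate genes here and among those lower in TetR-MYBTA than in TetR. Fewer peaks in TetR were found at Meox1 and Nkx2-5 (3.09% of all genes). The 6 became 19 without TetR replicate 3, a setting in which the share of all genes was not computed. At equal length 1 gene, Lhx6, was higher (4.71%) and 4 were lower (7.35%). Between TetR-MYBTA and TetR, 21 of 57 were lower in TetR-MYBTA (23.7% of all genes) and 1 higher (1.54%), and at equal length 6 (11.6%) and 3 (6.3%), the higher ones being Lhx9, Meox1 and Tlx3. Between TetR-MYBTA and WT, 17 were lower (18.6%) and 1 higher (2.22%), and at equal length 13 (13.9%) and 2 (5.24%), the higher ones being Lhx6 and Lhx9. These comparisons share libraries. Of the 57 genes, 36.8% were lower against TetR and 29.8% against WT, above the background in full lists. At equal length the shares were 10.5% against TetR, near the background, and 22.8% against WT.

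The ratio of TetR-MYBTA to the other 6 libraries was lowest at the gene ends. Counted by peak centre, the 57 genes had 31, 26 and 26 peaks in TetR-MYBTA, 43, 50 and 45 in TetR and 46, 37 and 41 in WT within 1 kb of a gene end, a ratio of 0.63. The ratio was 0.75 inside the genes, 0.69 from 1 to 10 kb outside, 0.80 from 10 to 25 kb and 0.72 from 25 to 50 kb. Over all genes it was 0.88 at gene ends, 0.77 inside genes and 0.82, 0.87 and 0.88 in the 3 outer steps. At equal list length the members' ratio was 0.68 at gene ends, 0.88 inside, 0.76 from 1 to 10 kb, and 0.95 and 0.89 in the outer steps, against 0.92, 0.92, 0.97, 1.04 and 1.05 for all genes. The TetR-MYBTA libraries lay below all other libraries at gene ends in both kinds of list, as they did over all genes. From 10 to 25 kb and from 25 to 50 kb they overlapped the others in both. The differences between distances were not tested.

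**Figure D3:**
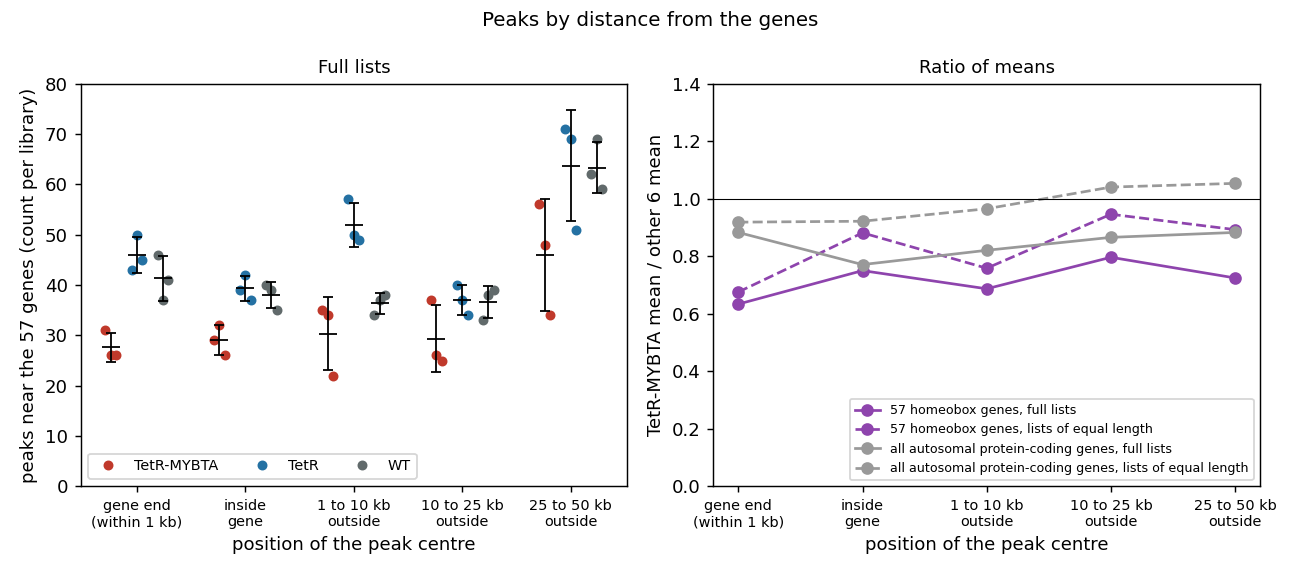
Left, peaks near the 57 genes per library (y axis, count) by the position of the peak centre (x axis); points are libraries, bars the mean and SD of 3. Right, the mean of the TetR-MYBTA libraries over the mean of the other 6, for the 57 genes and all genes, in full lists and lists of equal length; the members' ratio is lowest at the gene ends, at 0.63 in full lists.

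Peaks of different libraries that overlapped were joined into regions, 435 of them within 50 kb of the genes. Of these, 72 (16.6%) had a peak in all 9 libraries, against 22.4% of autosomal regions. A peak in all 6 TetR and WT libraries and in no TetR-MYBTA library was found at 12 regions (2.76%, against 1.17% of autosomal regions), and at 5 of 314 (1.59%, against 0.824%) at equal list length. The reverse was found at 2 regions (0.46%, against 0.595%), and at 1 (0.318%, against 1.56%) at equal length.
Of the 12 regions without a TetR-MYBTA peak, several lay at or near a gene end. At Msx2 the region chr13:53472703-53472976 overlapped the gene end at its promoter, at Barhl2 the region chr5:106458587-106459104 began 0.42 kb from the gene, and at Nkx2-3 the region chr19:43616389-43616722 began 0.50 kb from it. Near Emx2 there were 2 such regions, chr19:59469209-59469513 at 3.85 kb and chr19:59418135-59418376 at 40.3 kb. Emx1 also had 2 and Alx1, a craniofacial regulator, Irx5, Lmx1b, Msx1 and Pitx3 had 1 each, and at Irx5 and Pitx3 a TetR-MYBTA peak lay within 1 kb of the region.
The 2 regions private to TetR-MYBTA were chr1:120594610-120594852, 7.63 kb from En1, and chr1:138893961-138894208, 45.1 kb from Lhx9. Private to TetR were 5 regions, 2 of them near En1, among them chr1:120602158-120602369 at its promoter. WT also had 5 private regions, near Irx3, Irx4, Nkx2-5, Lhx5 and Uncx. The shares of all autosomal regions private to TetR or to WT were not computed, so these counts have no background.

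Where a gene-end peak was called in every library, its place in the list could be compared. HOMER's list order was used, and each peak was placed among the 9373 genes that had a gene-end peak in all 9 libraries, 100 being first. By the same exact permutation test 3 of the 16 members stood lower in TetR-MYBTA, namely Msx1, Nkx6-1 and Six6 (9.36% of the 9373 genes), and 4 stood higher, namely Gbx2, Lhx1, Meox2 and Tlx3 (10.8%), and none passed after adjustment over those genes. Msx1, a relative of Msx2 that also acts in the face and limb, stood at 13.7, 12.8 and 21.1 in TetR-MYBTA, 42.1, 56.4 and 53.6 in TetR and 44.2, 28.7 and 17.6 in WT, so that it overlapped with WT replicate 3. Lhx1, which acts in head and kidney formation, stood at 14.3, 23.7 and 33.6 in TetR-MYBTA, 5.54, 4.25 and 2.83 in TetR and 5.46, 11.2 and 3.90 in WT, without overlap. Isl1 stood between 90.3 and 96.5 in every library, the highest of the 16. By their means 10 of the 16 members stood lower in TetR-MYBTA and 6 higher, and of the 9373 genes 5083 and 4289. The median differences in place were −4.82 for the 16 members and −0.72 for the 9373 genes. Whether the list order ranks peaks by strength is not known, so these are differences in place only.
The members' gene-end peaks sat lower in the lists than those of other genes. Their median list percentile was 53.4 to 68.1 in the other 6 libraries, against 76.3 to 81.4 for all genes, and 55.1, 56.02 and 50.6 in TetR-MYBTA, against 73.2 to 76.7. The part of that position in the difference at gene ends was not tested.

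The chromosomes of the members also differed in peak number. In TetR-MYBTA, chromosome 19 held 1.90% of peaks against 2.47% in the other 6 libraries, a ratio of 0.769, chromosome 1 had a ratio of 1.34 and chromosome 11 one of 1.28. All 5 members on chromosome 19, Nkx2-3, Tlx1, Pitx3, Vax1 and Emx2, were lower, where 28.2% of its genes were, and at equal list length 2 of the 5 were, Nkx2-3 and Emx2. Of 6 members on chromosome 1 none was lower and Lhx9 was higher, where 7.56% of its genes were lower and 108 of 1204 higher. Of 5 on chromosome 11 none was either, where 2.73% of its genes were lower and 81 of 1609 higher. Over all genes 341 of 20661 were higher, so higher calls were more frequent on chromosomes 1 and 11. Chromosome 5 held 4 lower genes of 7 (27.5% of its genes).
Scaled to each library's peaks on the same chromosome, 16 of the 57 genes were lower (13.6% of all genes) and 3 were higher, Isl1, Lhx6 and Lhx9 (10.2% of all genes). The median difference was then −0.85 peaks for the 57 genes and −0.14 for all genes. Without chromosomes 1, 11 and 19, 41 genes remained, and 12 of them were lower (20.2% of the genes on those chromosomes). Their gene ends gave 18, 16 and 18 genes with a peak in TetR-MYBTA, 25, 27 and 24 in TetR and 26, 21 and 26 in WT, a ratio of 0.698. At equal list length they gave 15, 15 and 18 in TetR-MYBTA, 18, 21 and 20 in TetR and 24, 20 and 24 in WT, a ratio of 0.756, and TetR-MYBTA replicate 3 and TetR replicate 1 were equal. Their windows held 119, 103 and 86 peaks in TetR-MYBTA, 168, 166 and 151 in TetR and 148, 153 and 146 in WT, a ratio of 0.661, or 0.766 at equal length. The ratios over all genes without these chromosomes were not computed, so the members' ratios here have no background.

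**Figure D4:**
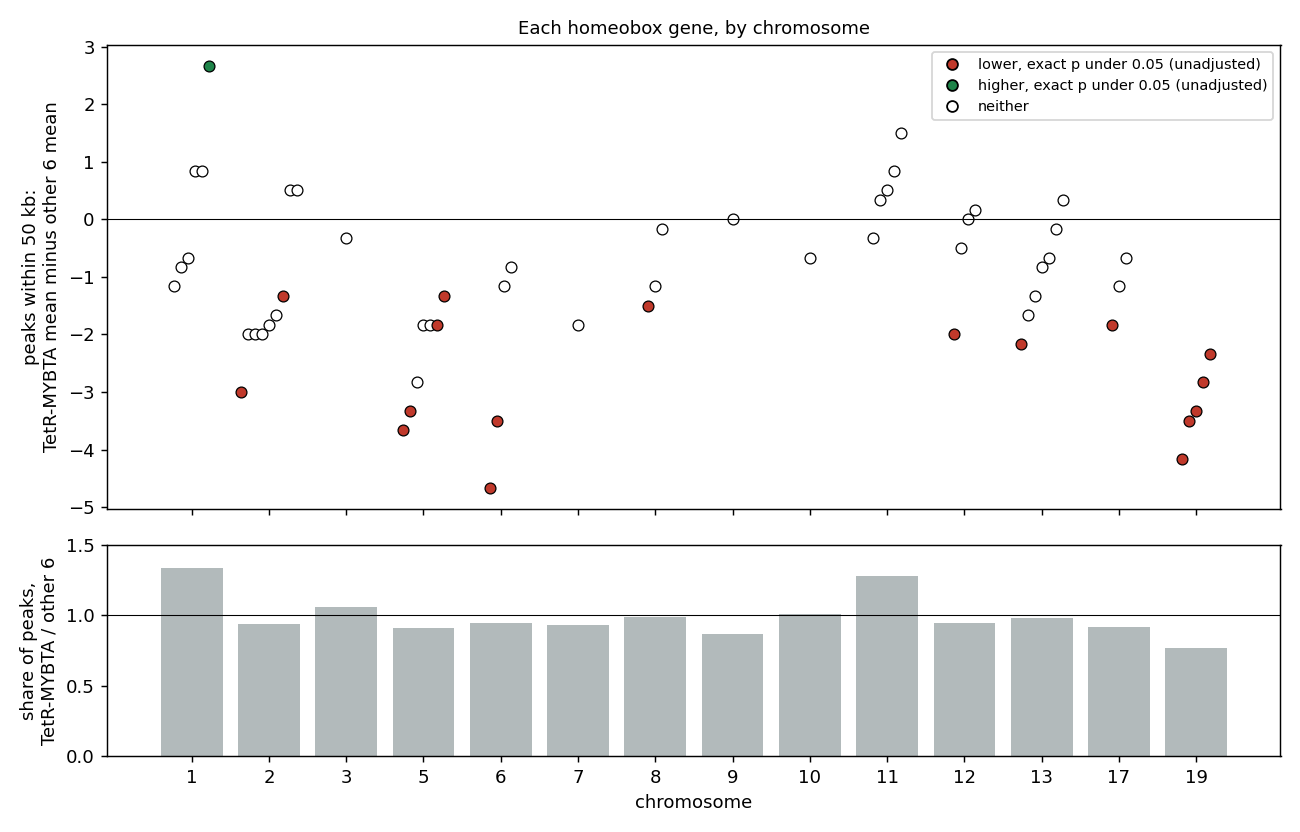
Upper panel, difference of mean peaks within 50 kb, TetR-MYBTA minus the other 6 libraries (y axis, peaks), for each of the 57 genes by chromosome (x axis), filled where the unadjusted exact p was under 0.05. Lower panel, each chromosome's share of peaks in TetR-MYBTA over its share in the other 6; all 5 genes on chromosome 19, at 0.769, are filled as lower, and Lhx9 on chromosome 1 is the only one filled as higher.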

How the data were processed

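Starts and ends of peaks are positions in base pairs on mm10, as the authors deposited them, 1 list per library. Per the file headers, HOMER called each list separately without a control library, with the false discovery rate set to 0.001, the local Poisson p-value to 0.0001 and the required excess over the 10 kb around a peak to 4-fold. Every row of the deposited lists has a score of 1, so the row order, which followed HOMER's peak numbers (lowest rank correlation 0.990), served to cut lists to equal length. Tools named in the submitters' processing notes are HOMER 4.11, Bowtie2, Trim Galore 0.6.10, deepTools 3.5.5, Picard and FastQC. No shift of reads for the Tn5 offset is mentioned there, and whether it was made is not given in the sources used.

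Peaks overlapping a window by at least 1 bp were counted, around genes of the RefSeq table for GRCm38.p6, which gives no exons. Tests were two-sided exact permutation tests over 84 choices of 3 libraries, with Benjamini-Hochberg adjustment over all 20661 genes. Members and lists, homeodomain classes included, were chosen with earlier results of these data known. Values per library are given for genes past the threshold (at most 15 in each direction), genes with a gene-end peak throughout one line and absent from another, the 6 with most gene-end peaks and the 4 with fewest peaks. Others that are named, such as En1, Msx1 and Lhx1, were chosen after their values were seen. No interval is given for counts, since each library is 1 list of calls. Python 3.11.15, numpy 2.4.6, pandas 2.3.3 and matplotlib 3.10.9 were used.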

Additional observations from a re-analysis of the deposited data

How the results depend on the processing

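The ratios over all 57 genes stayed below 1 under the settings tried. The LIM ratio went from 0.949 to 1.08 at equal list length and the HOX-like ratio from 0.860 to 1.03. Among genes that did not pass, the difference changed sign at equal length for Lmx1a (-0.67 to 1.33) and Pitx1 (-0.17 to 0.33), and when scaled to the chromosome for Dlx3 (0.33 to -0.09), Dlx6 (-0.83 to 0.16), Lhx8 (-0.33 to 0.17) and Nkx2-1 (-0.50 to 0.32). Of 264 recomputed differences of the 18 genes that passed, none changed sign, 189 kept their side of the threshold and 75 lost it. The ratio of genes with a gene-end peak (0.695) was 0.592 in the upper 50% of each list and 0.671 to 0.714 with 1 library left out, and it moved by less than the spread between libraries under the other settings, such as 2.5 kb in place of 1 kb (0.698). The ratio of peak shares within 50 kb (0.824) was 0.778 in the upper 50%, 0.763 without chromosomes 1, 11 and 19, and 0.804 to 0.836 with 1 library left out. Over all genes these ratios were not computed in the upper 50%, without chromosomes 1, 11 and 19 or with 1 library left out. Lower genes (17) numbered 6 at equal list length, 8 in the upper 50%, 10 within 10 kb and 9 to 17 with 1 library left out. Where no share of all genes is given above for a setting, none was computed, here and in the counts that follow. Such counts describe the members only. Higher genes (1) numbered 0 in the upper 50%, 3 when scaled to the chromosome, 0 without chromosomes 1, 11 and 19, 0 within 10 kb and 1 throughout with 1 library left out.

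Genes lower in TetR-MYBTA than in TetR without overlap (21) numbered 6 at equal length, 11 in the upper 50%, 13 within 10 kb and 21 to 26 with 1 library left out. Those higher (1) numbered 3 at equal length, 3 when scaled, 0 without the 3 chromosomes, 0 within 10 kb and 1 to 3 with 1 library left out. Against WT, lower genes (17) numbered 11 within 10 kb and 17 to 22 with 1 library left out. Higher genes (1) numbered 2 at equal length, 2 in the upper 50%, 2 when scaled, 0 without the 3 chromosomes, 0 within 10 kb and 1 to 5 with 1 library left out. Genes higher in TetR than in WT (6) numbered 1 at equal length, 12 when scaled and 7 to 19 with 1 library left out. Those lower (2) numbered 4 at equal length, 4 in the upper 50%, 5 when scaled, 1 without the 3 chromosomes, 0 within 10 kb and 2 to 5 with 1 library left out. Smaller groups overlap less often, which raises such counts.

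Genes without a gene-end peak in TetR-MYBTA and with one in all other libraries (2) numbered 1 at equal length and 2 to 4 with 1 library left out. Against TetR alone (4) they numbered 2 at equal length and 4 to 7, and against WT alone (3) 5 in the upper 50% and 3 to 5. The reverse against TetR (0) numbered 0 to 1 with 1 library left out. For the reverse against WT and against all other libraries, every setting gave 0. A peak in all TetR and no WT library (0) was found at 1 gene in the upper 50%, by peak centre, at 2.5 kb or from annotated starts, and at 0 to 2 with 1 library left out. The opposite pattern (1) was found at 2 genes at equal length, at 0 in the upper 50%, at 2.5 kb or from annotated starts, and at 1 throughout with 1 library left out. The cause of these moves was not tested.

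With the replicate number as a block, 13 genes were lower and 1 was higher, and no share of all genes was computed with blocks. Same-numbered libraries correlated at -0.078 to 0.179 and others at -0.153 to 0.0985, and a library correlated best with its own number in 6 of 18 cases. The labels do not say whether same-numbered libraries were prepared together, and these correlations cannot decide it. With lists of calls, a peak that is not listed cannot be told from one just under the threshold.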
